A study of Mus musculus with 5 samples.

Results

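H3K4me3 was mapped by chromatin immunoprecipitation with sequencing (ChIP-seq) in double-positive (DP) thymocytes, T-cell precursors with CD4 and CD8 on their surface, and the peaks described here lay inside genes but away from promoters. They were the wild-type (WT) H3K4me3 peaks on the autosomes with at most 10 tags per 1000000 mapped tags (RPM) whose midpoint fell in the body of a protein-coding gene and more than 5 kb from every protein-coding transcription start site (TSS). The rule kept 3887 of the 14166 autosomal WT peaks of at most 10 RPM, or 27.4%, and the WT list held 14237 peaks in all. They are called intragenic distal peaks below. For comparison, 5895 WT peaks had their midpoint within 1 kb of a TSS (promoter peaks), 1839 lay between 1 and 5 kb from a TSS, and 2545 lay outside genes and more than 5 kb from a TSS (intergenic distal peaks).

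The study mapped Cxxc1 and H3K4me3 in DP thymocytes of WT mice, which were Cxxc1 fl/fl, and of Cxxc1-deficient mice, which were Cxxc1 fl/fl hCD2-Cre. Both groups therefore carried the floxed alleles. The hCD2-Cre transgene deletes in the lymphoid lineage and is not limited to DP cells, and the mice were 3 to 4 weeks old unless the methods stated otherwise. The titles of the Cxxc1-deficient samples name a knockout and their genotype labels name Cxxc1+/-, and the titles were followed. The 3 lists used were WT H3K4me3, Cxxc1-deficient H3K4me3 with 2979 peaks, and Cxxc1 with 4352 peaks, whose file carries no genotype. The study reports this same number of Cxxc1 peaks for WT DP cells. Each list came from 1 library, so differences between lists could not be checked against replicates and carry no p-value. Intervals are 95% Wilson intervals for shares and exact Poisson intervals for densities. They cover counting error only, and peaks are not replicates.

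H3K4me3 is placed by the Setd1 and Mll methyltransferase complexes. Cxxc1 is the subunit of the Setd1 complexes that binds unmethylated CpG dinucleotides through its CXXC zinc finger, and most CpG islands, which are stretches rich in CpG, carry H3K4me3 where they overlap a promoter. Outside promoters, H3K4me3 is usually weak, and enhancers are better known for H3K4me1.

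To show what lay under these peaks, the strongest 200-bp window is printed for 4 of the 5 peaks that overlapped a peak of both other lists and for the strongest peak in Tcf7, Bcl11b and Sorcs2, genes with many such peaks. All are on the plus strand of mm9, 5′ to 3′, and capitals mark each CpG. Heyl (chr4:122917001-122917200), which encodes a bHLH repressor of the Notch pathway, and Kcnh3 (chr15:99064401-99064600), a voltage-gated potassium channel, held 12 and 11 CpGs.

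Heyl: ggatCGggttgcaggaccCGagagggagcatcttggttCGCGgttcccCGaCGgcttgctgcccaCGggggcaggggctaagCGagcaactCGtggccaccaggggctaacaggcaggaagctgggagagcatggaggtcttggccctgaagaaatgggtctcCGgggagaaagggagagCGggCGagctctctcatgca
Kcnh3: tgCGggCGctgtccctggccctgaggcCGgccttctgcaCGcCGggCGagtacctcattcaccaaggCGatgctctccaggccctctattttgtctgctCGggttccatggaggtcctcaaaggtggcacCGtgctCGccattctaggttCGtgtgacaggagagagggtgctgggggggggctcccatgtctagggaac

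The windows in Lrrc15 (chr16:30276601-30276800), which encodes a leucine-rich repeat membrane protein, and Macrod1 (chr19:7140401-7140600), which encodes a macrodomain protein, held 1 and 0 CpGs. Among the windows of these peaks, only that in Heyl lay in both the Cxxc1-deficient and the Cxxc1 peak. Those in Kcnh3 and Lrrc15 lay in the Cxxc1 peak and outside the Cxxc1-deficient peak. In Macrod1 neither of the other peaks reached the printed window.

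Lrrc15: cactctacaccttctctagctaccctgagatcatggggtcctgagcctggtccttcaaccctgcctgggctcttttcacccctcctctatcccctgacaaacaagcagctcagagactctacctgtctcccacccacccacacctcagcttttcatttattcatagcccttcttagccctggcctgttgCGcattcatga
Macrod1: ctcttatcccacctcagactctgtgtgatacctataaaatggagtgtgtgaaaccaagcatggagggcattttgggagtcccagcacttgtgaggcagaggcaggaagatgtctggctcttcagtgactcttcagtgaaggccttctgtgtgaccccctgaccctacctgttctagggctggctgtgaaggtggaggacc

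In Tcf7 (chr11:52086801-52087000) and Bcl11b (chr12:109203201-109203400), which encode transcription factors of the T lineage, the strongest windows held 5 and 6 CpGs. The window in Sorcs2 (chr5:36703401-36703600), a sorting receptor best known from neurons, held 1.

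Tcf7: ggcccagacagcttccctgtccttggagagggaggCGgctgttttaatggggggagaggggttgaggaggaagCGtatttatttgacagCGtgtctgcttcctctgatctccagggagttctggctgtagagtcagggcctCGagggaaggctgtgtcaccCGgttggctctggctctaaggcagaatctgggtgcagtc
Bcl11b: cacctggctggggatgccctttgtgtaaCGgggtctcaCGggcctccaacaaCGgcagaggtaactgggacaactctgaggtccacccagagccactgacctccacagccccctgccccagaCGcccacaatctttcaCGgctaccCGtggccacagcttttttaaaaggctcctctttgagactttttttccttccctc
Sorcs2: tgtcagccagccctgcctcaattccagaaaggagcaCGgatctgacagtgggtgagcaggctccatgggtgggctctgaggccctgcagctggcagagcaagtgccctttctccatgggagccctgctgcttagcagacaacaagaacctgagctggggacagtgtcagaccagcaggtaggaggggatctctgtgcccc

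The intragenic distal peaks were weak. Their median strength, the RPM summed over the listed 200-bp windows, was 2.1 RPM (interquartile range 1.8 to 2.7), or 20 tags, beside 2.1 RPM (1.7 to 2.6) for intergenic distal peaks and 2.5 RPM (2.0 to 3.3) for promoter peaks. Their median width was 1600 bp, the same as for both other classes. The weakest held 1.1 RPM and the strongest 9.4 RPM. In all they covered 6.80 Mb and held 23.9% of the RPM listed in WT. The depth of each H3K4me3 library, inferred from the RPM value of 1 tag, was 9.41 to 9.47 M tags, and that of the Cxxc1 library 9.09 to 9.14 M tags. At the limits of the rule, the peaks in Cd44 (5002 bp from a TSS, 1.9 RPM) and Fam65c (5017 bp, 2.8 RPM) were just inside the distance and those in Sox7 (4990 bp, 1.4 RPM) and Tesk1 (4990 bp, 1.5 RPM) just outside it. The peaks in Stx8 (9.4 RPM) and Nfix (9.3 RPM) were just under the strength limit, and those in Pxn (10.1 RPM) and Abcb9 (11.4 RPM) just above it.

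The strongest of them were broad stretches of low windows. The peak in Stx8, which encodes a SNARE protein of endosomes, held 9.4 RPM over 6400 bp (chr11:68007201-68013600), yet no window in it exceeded 0.7 RPM. It lay in an intron 190 kb from the nearest protein-coding TSS and 0.746 kb from the start of an antisense transcript, C78197. The peak in Nfix, which encodes a transcription factor of the nuclear factor I family, held 9.3 RPM, lay in an exon and was the only one of the 10 strongest that overlapped a CpG island. Vav2, a guanine nucleotide exchange factor, carried 8.3 RPM in an intron 48.1 kb from its TSS. An equally strong peak lay in an intron of the gene model Gm20388, 73.9 kb from the TSS of Gse1. Peaks of 8.2 RPM lay in N4bp3, in Tcf7 and in Tmprss6, a membrane serine protease. Peaks of 8.1 RPM lay in Tpst2, a tyrosylprotein sulfotransferase, and in Mical3, an actin-regulating monooxygenase.

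Most of the peaks were intronic, and they lay far into genes. The midpoint fell in an intron for 3273 peaks (84.2%) and in an exon for 614 (15.8%), of which 383 were in coding sequence. The median distance to the nearest protein-coding TSS was 18350 bp, and 221 peaks lay more than 100 kb away. Exons took up 5.16% of the sequence that could hold such a peak, namely gene bodies more than 5 kb from every protein-coding TSS, cut into 489027 tiles of 1600 bp that covered 782.4 Mb. Within GC classes the exonic shares of tiles and peaks were 3.83% and 14.4% at 40 to 45% GC, 5.52% and 7.94% at 45 to 50%, 11.7% and 13.2% at 50 to 55%, 26.9% and 25.8% at 55 to 60%, and 41.8% and 56.2% at 60% and over. The densities in exons and introns had intervals that stayed apart at 40 to 45% GC, with 1.46 (0.832 to 2.36) and 0.344 (0.279 to 0.421) per Mb, and at 45 to 50%, with 7.02 (5.44 to 8.92) and 4.76 (4.43 to 5.11) per Mb. At 50 to 55% and 55 to 60%, which hold most of the peaks, the intervals overlapped. Along the host gene, peaks became denser towards the 3′ end, from 3.38 per Mb (3.06 to 3.73) in the 20% of the gene at its 5′ end to 7.17 per Mb (6.77 to 7.58) in the 20% at its 3′ end. The GC content of the sequence rose in parallel, from 41.8% to 43.1% in the median. The number of peaks in each 20% of the gene was 0.951 to 1.06 times the number obtained when each tile was given the mean peak density of all tiles in its 1-point GC class.

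**Figure D1:**
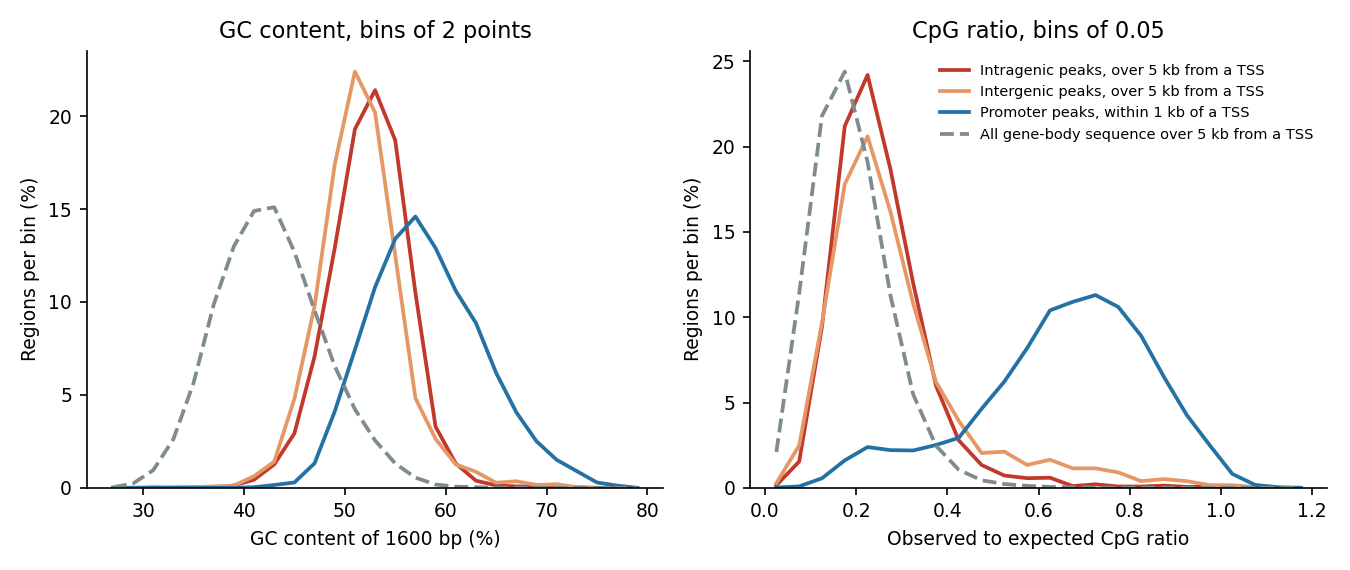
GC content (left, %) and observed to expected CpG ratio (right) of 1600 bp at the midpoint of intragenic distal, intergenic distal and promoter WT H3K4me3 peaks (solid lines) and of all gene-body sequence over 5 kb from a TSS (dashed line), as the percentage of regions per bin. The intragenic distal peaks have a GC content well above that of all such gene-body sequence, with medians of 52.6% and 42.3%. Their CpG ratio is slightly above that of this sequence, with medians of 0.236 and 0.180, and far below that of promoter peaks.

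The intragenic distal peaks were richer in GC and in CpG than the tiles of all gene bodies, and held far less CpG than promoter peaks. They were not compared with the sequence next to them or with their host genes alone. Their median GC content over 1600 bp was 52.6% (interquartile range 50 to 54.9), against 42.3% (38.9 to 46.0) for the tiles and 57.7% (54.1 to 61.9) for promoter peaks. They held a median of 1.56 CpGs per 100 bp, against 0.812 for the tiles and 5.50 for promoter peaks. Their median observed to expected CpG ratio was 0.236 (0.186 to 0.299), against 0.180 (0.128 to 0.238) for the tiles and 0.679 (0.548 to 0.792) for promoter peaks. A ratio of at least 0.6 was found in 1.39% of them, 0.125% of the tiles and 66.4% of promoter peaks. CpG islands, taken as stretches of 500 bp or more with 55% GC or more and a CpG ratio of 0.65 or more, overlapped 210 intragenic distal peaks, or 5.40% (4.73 to 6.16). The share was 44.9% over all autosomal WT peaks of at most 10 RPM, 14.4% (13.1 to 15.8) for intergenic distal peaks, 88.8% (87.9 to 89.6) for promoter peaks and 0.719% for the tiles. Looser islands of at least 200 bp, 50% GC and a ratio of 0.6 overlapped 39.6% (38.0 to 41.1) of them. The share at an island was 15.6% (13 to 18.7) for peaks with an exonic midpoint and 3.48% (2.91 to 4.17) for intronic ones. The median strength was 2.5 RPM (interquartile range 2.0 to 3.3) at an island and 2.1 RPM (1.8 to 2.6) elsewhere.

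**Figure D2:**
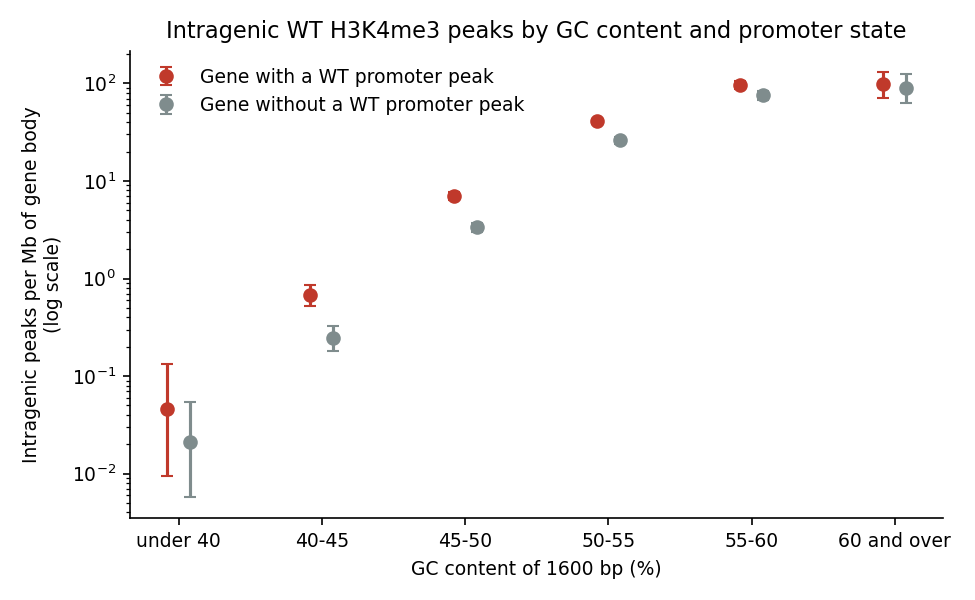
Intragenic distal WT H3K4me3 peaks per Mb of gene body over 5 kb from a TSS (log scale), by GC content of 1600 bp, in genes with (red) and without (grey) a WT promoter peak. Points are densities and bars exact Poisson 95% intervals; density rises from under 0.1 per Mb below 40% GC to over 90 per Mb at 60% GC and above for genes with a promoter peak, which lie higher in the middle classes.

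The density of these peaks rose steeply with GC content. There were 0.0277 peaks per Mb in tiles under 40% GC, 0.387 at 40 to 45%, 4.88 at 45 to 50%, 33.6 at 50 to 55%, 87.6 at 55 to 60% and 94.2 at 60% and over. Peaks of the other lists, chosen by the same rule, rose less. The 830 intragenic distal peaks of the Cxxc1-deficient H3K4me3 list went from 0.0830 per Mb under 40% GC to 5.32 per Mb at 55 to 60%, and the 1789 of the Cxxc1 list from 0.506 to 5.83 per Mb. At 60% and over, where the tiles covered only 0.8496 Mb, both stood at 2.35 per Mb. That value rests on very few peaks in each list and has no interval here. Their median GC contents were 48.6% and 46.1%. Sequencing libraries can favour GC-rich DNA. The input library was not analysed here, so the part of such a preference in these densities was not tested.

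Peaks were also denser in genes whose promoter was marked. A gene was called marked when a listed WT peak overlapped the region within 1 kb of one of its protein-coding TSSs. Marked genes held 8.91 peaks per Mb (8.56 to 9.28) and unmarked genes 2.92 per Mb (2.77 to 3.07). The intervals stayed apart at equal GC over most of the range, with 7.04 (6.44 to 7.68) against 3.34 (2.99 to 3.72) at 45 to 50% GC, 41.0 (38.8 to 43.4) against 26 (24.2 to 27.9) at 50 to 55%, and 96.6 (88.7 to 105) against 75.4 (67.3 to 84.2) at 55 to 60%. At 60% GC and over they overlapped, with 97.7 (71.2 to 131) and 90 (62.7 to 125). Without the very long gene model Gm20388, described below, the totals were 8.64 and 2.96 per Mb. By gene, 53.8% (51.7 to 55.9) of the host genes were marked, against 34.1% (33.3 to 35.0) of the genes that could have held a peak and did not. The difference was also present among genes of similar length. With 50 to 100 kb of sequence open to such a peak, 31.9% of 817 marked and 15.5% of 1103 unmarked genes held one, and with over 200 kb, 42.6% of 235 and 18.9% of 555. These genes were not matched for GC content. Its medians in marked and unmarked genes were 43.4% and 42.5% at 50 to 100 kb, and 43.0% and 40.8% over 200 kb.

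Annotated starts of non-coding transcripts lay near few of the peaks. A TSS of a transcript not annotated as protein-coding was within 1 kb of the midpoint of 286 peaks, 7.36% (6.58 to 8.22), against 2.55% of the tiles, whose GC content was lower, and 45.8% (44.5 to 47.0) of promoter peaks. Of these, 225 belonged to the host gene itself, mostly processed transcripts and retained introns, and 32 were antisense or lincRNA transcripts. Neither a CpG island nor a non-coding TSS was found at 3425 peaks (88.1%), which had a median of 2.1 RPM.

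Host genes numbered 2188, and 14305 genes had sequence that could hold such a peak. A single peak was found in 1427 of them, and 193 genes with at least 4 held 1176 peaks, or 30.3%. The gene model with the most, Gm20388, spans 4.43 Mb (chr8:122434741-126869622) across many other genes, and 76 peaks lay in it and in no other gene. Without this model 3811 peaks and 2187 host genes remained. Next came Sorcs2 with 21 peaks of 1.5 to 7.0 RPM, Sept9 (a cytoskeletal septin) with 16, Zmiz1 (a transcriptional coactivator that works with Notch1) and Mad1l1 (a mitotic checkpoint protein) with 15 each, and Prex1 (an activator of Rac) and Galnt2 (which starts O-linked glycosylation) with 13 each. Tbc1d22a held 12, and Gse1, Vav2 and Itpk1 (an inositol phosphate kinase) held 11 each. The promoter was marked in WT in all of these except Galnt2. Of these 10 genes, Gse1 and Sept9 were the most densely covered, with 14.3 peaks per 100 kb in each, and Tbc1d22a the least, with 4.29. For Gm20388 the 76 peaks in no other gene gave 2.1 per 100 kb. That length includes the genes inside it, with which it held 135 peaks, so the value understates its density. Given the GC content of its tiles, each of these 10 genes held 1.91 to 3.42 times the number that the mean density gives; they were picked for their counts. Gm20388 as a whole, with the genes inside it, held 1.13 times that number.

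Some of the peaks lay close to each other. The median gap to the next intragenic distal peak was 18.2 kb (interquartile range 4.2 to 85.4). Another intragenic distal peak was within 5 kb of 28.6% (27.2 to 30) of the peaks, and 71.4% had none. A WT peak of any kind was within 5 kb of 35.3% (33.9 to 36.9) of the intragenic distal peaks. This compared with 24.6% (23.0 to 26.3) of intergenic distal and 18.1% (17.1 to 19.1) of promoter peaks. These shares are not adjusted for GC content. Peaks at most 5 kb apart formed 474 runs of 2 or more, of which 37 had at least 4 peaks and 11 at least 5. The longest runs held 6 peaks, in Pmepa1, an inhibitor of TGF-beta signalling (21.0 kb, 16.4 RPM in all), and in Fam178b (22.4 kb, 13.4 RPM). The run in Tcf7 held 5 peaks over 20 kb and 21.6 RPM. Peaks within 5 kb of another had a median GC content of 53.6% and the others 52.1%.

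Lists of genes were then compared. Among the 5 larger lists, T-lineage transcription factors held the most peaks for their length, with 64 peaks in 20 of 36 gene models, or 17.8 per Mb. Hivep3 counts there as 2 models, 1 inside the other, so their shared sequence enters the length of the list more than once. Genes of T-cell receptor (TCR) signalling followed with 47 peaks in 20 of 43 genes, or 16.2 per Mb. Chromatin regulators held 46 in 20 of 67 genes, or 11.1 per Mb, and genes of the thymocyte surface and of recombination 7 in 5 of 28 genes, or 5.98 per Mb. All genes that could hold a peak had 4.89 per Mb, and 15.3% of them held one. Neuronal synapse and adhesion genes, which are long, held 13 peaks in 5 of 49 genes, or 0.353 per Mb. The median GC content of the sequence was 45% for both T-cell lists, 44.3% for all genes and 38.7% for the neuronal list. Weighted by GC, the mean density gives 24.3 peaks for the T-lineage factors, 17.8 for TCR signalling, 32.1 for the chromatin regulators, 3.82 for the surface and recombination genes and 26.8 for the neuronal genes. The counts were 2.64, 2.63, 1.43, 1.83 and 0.485 times those numbers. The promoter was marked in 33 of all 42 T-lineage factors found in the annotation, 27 of 45 TCR genes, 50 of 73 chromatin regulators, 16 of 38 surface and recombination genes and 3 of 52 neuronal genes, against 37.1% of all genes that could hold a peak. The lists were chosen with earlier results of these data known and were not tested.

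**Figure D3:**
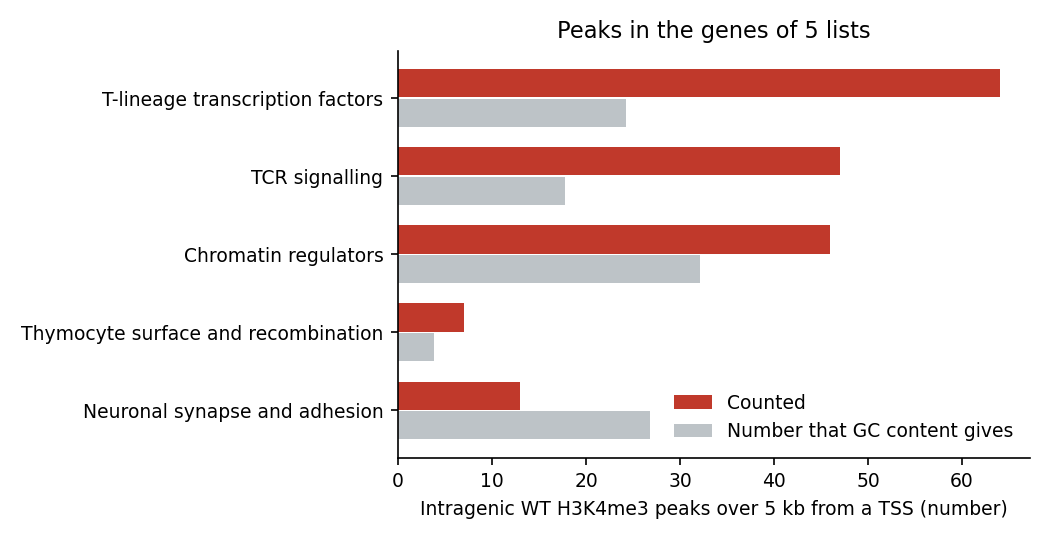
Number of intragenic distal WT H3K4me3 peaks in the genes of 5 lists (red) beside the number that the GC content of their sequence gives at the mean density of all gene bodies (grey). The T-lineage transcription factors held 64 against 24.3 and the TCR signalling genes 47 against 17.8, and the neuronal genes held 13 against 26.8.

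Among the T-lineage factors, Bcl11b, which holds precursors to the T-cell fate, carried 10 peaks that summed to 29.8 RPM. They held 1.5 to 7.8 RPM, and the strongest lay over an exon 37.9 kb from the start of the gene. Tcf7, which encodes TCF1, carried 5 peaks of 2.1 to 8.2 RPM that summed to 21.6 RPM and lay next to a WT peak of 9.9 RPM over the start of the gene. Notch1, the receptor that directs early T-cell commitment, carried 6 that summed to 21.4 RPM. Runx1, a factor used throughout thymocyte development, carried 7 that summed to 14.1 RPM and spanned a narrow range of 1.8 to 2.2 RPM. Of the TCR genes, Itpkb, an inositol trisphosphate kinase needed for positive selection, carried 8 peaks (19.1 RPM), Cd247, the zeta chain of the TCR complex, carried 6 (17.3 RPM), and the calcium-regulated factors Nfatc2 and Nfatc1 carried 7 (17.2 RPM) and 4 (12.3 RPM). The promoter of Nfatc1 had no listed WT peak. Among chromatin regulators, Arid1b, a subunit of SWI/SNF complexes, carried 8 (19 RPM), the CXXC protein Kdm2b 3 (8.1 RPM) and the histone demethylase Kdm4b 3 (6.5 RPM). Setd1b, which encodes a methyltransferase of the Cxxc1-containing complexes, carried 2 exonic peaks of 1.9 and 4.6 RPM and was named after its values were seen. On the surface and recombination list, Xrcc6, the Ku70 subunit of end joining, and Ccr7, a chemokine receptor, carried 2 each. Cacna1a, a neuronal calcium channel, held 6 of the 13 peaks of the neuronal list, and Nlgn1, a synaptic adhesion protein, held 3 (12.5 RPM in all). A further 2 peaks in Nlgn1, of 27.7 and 28.2 RPM, were over the strength limit. The 3 peaks lay beside and between these 2, all in a single stretch (chr3:25416801-25456600).

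**Figure D4:**
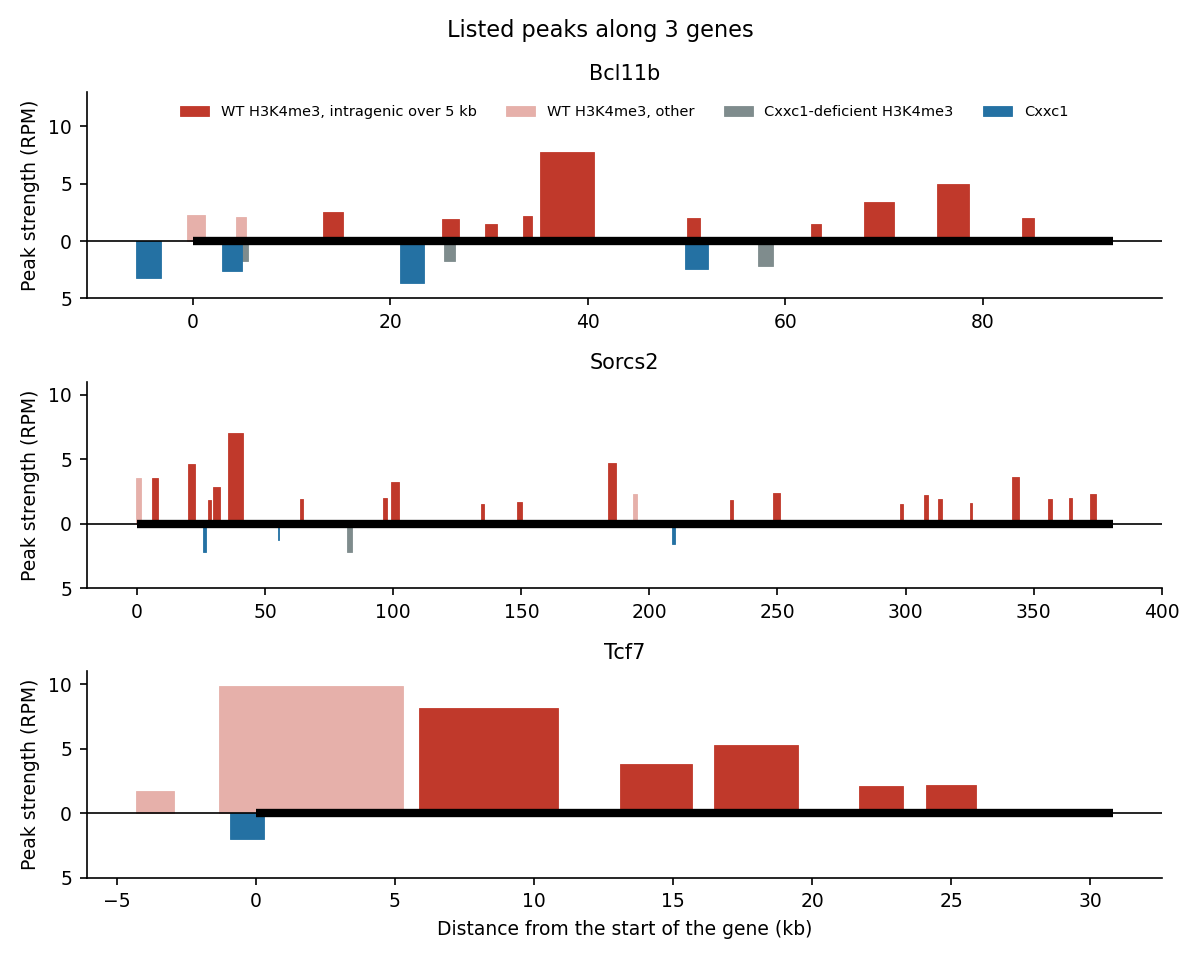
Listed peaks along Bcl11b, Sorcs2 and Tcf7, by distance from the start of the gene (kb). Bars have the width of the peak and the height of its strength (RPM); WT H3K4me3 points up, with intragenic distal peaks dark, and Cxxc1-deficient H3K4me3 (grey) and Cxxc1 (blue) point down; the black line is the gene. The dark bars run along the whole of Bcl11b and Sorcs2, and few of them have a bar of another list below.

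The lists also served to check the cell type by promoter peaks. Of 9 DP marker genes, Cd8a, Cd8b1 and Cd3e had a listed WT peak within 1 kb of a TSS, and Cd4, Cd3d, Cd3g, Rag1, Rag2 and Dntt did not. Over all genes that could hold an intragenic distal peak the share was 37.1%, so these promoter peaks do not single out the DP markers. The Cxxc1-deficient list also had 3 of the 9, Cd8a, Cd3e and Rag1. The nearest WT peak to Cd4 was 1.24 kb from its TSS, and that to Rag1 147 kb. The WT list thus had no entry at several promoters used in DP cells, and a gene called unmarked here may carry H3K4me3 that was not listed. Promoter peaks were listed for 2 of 9 B cell, 1 of 10 myeloid, 2 of 6 erythroid and 2 of 12 thymic stroma markers. Intragenic distal peaks lay in 2 of the 7 B cell markers that could hold one (Blk and Cd22, 1.5 RPM each) and in 2 of 10 stroma markers (4 in Pecam1, 11.3 RPM in all, and 1 in Col1a1, 2.8 RPM), and in none of 4 myeloid and 2 erythroid markers. These few genes had 2.96 peaks per Mb on the B cell list and 18.2 per Mb on the stroma list. The part of other cells in these peaks was not tested.

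The next comparison was with H3K4me3 in Cxxc1-deficient cells. Of the intragenic distal peaks, 188 shared 1 bp or more with a Cxxc1-deficient peak, 4.84% (4.21 to 5.56). Over all autosomal WT peaks of at most 10 RPM the share was 8.06%. It was 6.64% (5.74 to 7.67) for intergenic distal peaks and 11.2% (10.4 to 12.1) for promoter peaks. Windows outside the called regions are not listed, so a peak without a counterpart has an unknown level in Cxxc1-deficient cells and not a level of 0. Which control served in calling H3K4me3 is not given. If the H3K4me3 ChIP of Cxxc1-deficient cells was the control for WT, the calling itself could have lowered these shares, which was not tested.

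The share rose with strength and was under that of promoter peaks in each strength class. Up to 1.8 RPM, 3.32% (2.44 to 4.50) of intragenic distal and 8.33% (6.81 to 10.2) of promoter peaks had a Cxxc1-deficient peak, and over 2.7 RPM these were 8.49% (6.81 to 10.5) and 14.2% (12.9 to 15.7). Intergenic distal peaks had shares within the intervals of the intragenic ones up to 2.1 RPM. From 2.1 to 2.7 RPM they had 7.38% (5.56 to 9.73), against 4.74% (3.58 to 6.24) for intragenic distal peaks. Over 2.7 RPM the intergenic share was 14.7% (11.9 to 18.0). At 45 to 50% GC the shares were 6.04% (4.63 to 7.86) for intragenic distal, 5.80% (4.35 to 7.69) for intergenic distal and 8.21% (5.70 to 11.7) for promoter peaks. At 50 to 55% GC they were 4.37% (3.56 to 5.36) for intragenic distal, 6.08% (4.89 to 7.54) for intergenic distal and 10.2% (8.80 to 11.9) for promoter peaks. The share was 7.30% (5.91 to 8.98) for peaks within 5 kb of another intragenic distal peak and 3.85% (3.20 to 4.64) for the others. It was 5.69% (4.83 to 6.70) in genes with a marked promoter and 3.52% (2.71 to 4.57) in the rest. At a CpG island the share was 5.24% (2.95 to 9.13), and away from one 4.81% (4.17 to 5.55).

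**Figure D5:**
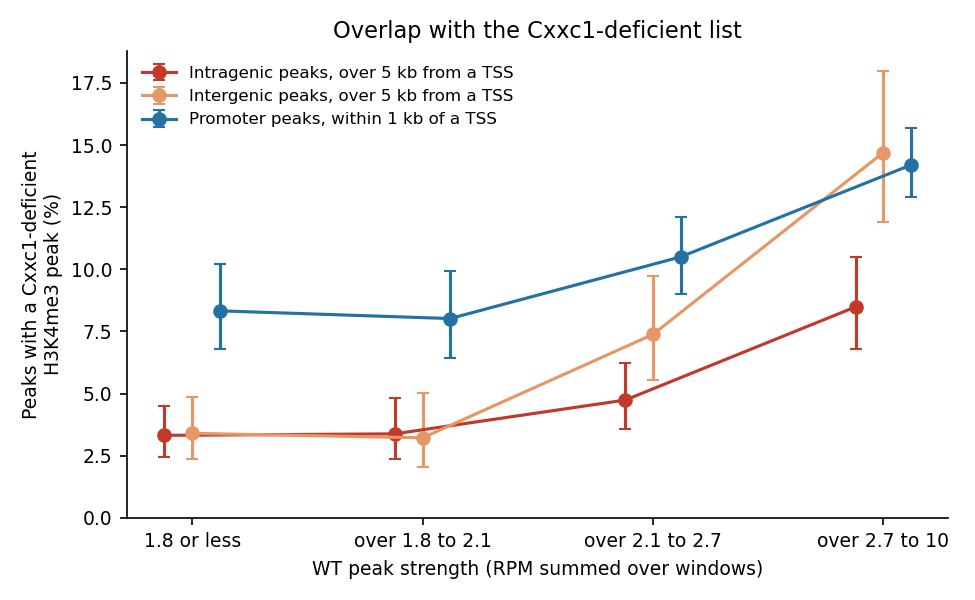
Share of WT H3K4me3 peaks that overlapped a Cxxc1-deficient H3K4me3 peak (%), by strength of the WT peak (RPM), for intragenic distal, intergenic distal and promoter peaks. Points are shares and bars 95% Wilson intervals; the intragenic distal peaks rise from 3.32% to 8.49% and lie under the promoter peaks in every class.

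Levels in both genotypes were known only for windows called in both, which were 615 of the 26128 windows of intragenic distal peaks. In these, WT averaged 0.397 RPM per window and Cxxc1-deficient cells 0.372 RPM. WT exceeded Cxxc1-deficient cells in 41.3% of these windows, fell short in 33.3% and equalled them in 25.4%. With 1 tag worth 0.1056 to 0.1062 RPM, these means differ by less than 1 tag. Windows called in both libraries had to pass the calling in each, so these values say nothing of the windows listed in WT only. Sums over peaks cannot be read as a difference in level, since peaks were called separately and differ in extent. The Cxxc1-deficient peak could be wider than the WT peak, as at Ugt1a1, which encodes the bilirubin-conjugating enzyme. There a WT peak of 8.8 RPM (chr1:90112001-90115800) lay inside a Cxxc1-deficient peak of 20.7 RPM (chr1:90107801-90118600). It could also be narrower, as at the Gm20388 peak near Gse1, which spanned 5800 bp in WT (8.3 RPM, chr8:122936001-122941800) and met a Cxxc1-deficient peak of 1.7 RPM (chr8:122937401-122938800). The next strongest with a counterpart were Mical3 (8.1 against 2.5), Cacnb1, a calcium channel subunit (7.2 against 1.4), and Prex1 (6.8 against 5.3). Both peaks of Fli1, an ETS factor, had a counterpart (2.3 and 1.4 RPM in WT, with 2.8 and 1.8 RPM when Cxxc1 was lacking). So did 2 of 4 in Nfatc1 and 1 of 10 in Bcl11b, and none of 5 in Tcf7 or of 21 in Sorcs2. By list, 5 of 64 peaks of the T-lineage factors, 5 of 47 of TCR signalling and 2 of 46 of the chromatin regulators had one. None of the 7 surface and recombination peaks or the 13 neuronal peaks did. With a share of 4.84% over all intragenic distal peaks, such small counts do not set single genes apart.

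Few of the peaks overlapped the Cxxc1 list. The overlap comprised 72 peaks, 1.85% (1.47 to 2.33), beside 1.91% over all autosomal WT peaks of at most 10 RPM, 1.78% (1.47 to 2.15) for promoter peaks and 2.08% (1.60 to 2.71) for intergenic distal peaks. The intervals of the 3 classes overlapped. The Cxxc1 peaks at these places held 1.1 to 11.4 RPM with a median of 1.8 RPM. At a CpG island 7 of 210 peaks had one, 3.33% (1.62 to 6.72), and elsewhere 65 of 3677, 1.77% (1.39 to 2.25). The strongest WT peaks with a Cxxc1 peak lay in Kctd16, an auxiliary subunit of GABA-B receptors (6.7 RPM), Vipr1, a receptor for vasoactive intestinal peptide (6.5 RPM), Galnt2 (6.2 RPM), Parvb, a focal adhesion protein (5.5 RPM), and Macrod1 (5.3 RPM). Among T-lineage factors, 1 peak each in Bcl11b, Runx1 and Nfkb1 overlapped Cxxc1 peaks of 2.4, 2.2 and 2.9 RPM.

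Overlap with a peak of both other lists was found at 5 of the WT peaks. In Heyl the WT, Cxxc1-deficient and Cxxc1 peaks held 1.8, 1.8 and 3.9 RPM, in Kcnh3 4.3, 2.5 and 2.0 RPM, in Lrrc15 1.7, 2.2 and 1.5 RPM, and in Macrod1 5.3, 1.6 and 2.1 RPM. In Macrod1 and Kcnh3 the Cxxc1-deficient and the Cxxc1 peak met the WT peak at different stretches and did not overlap each other (chr19:7139001-7140200 and chr19:7141601-7143400 in Macrod1), so no base there was in all 3 lists. The Heyl peak overlapped a CpG island, and its midpoint was 0.199 kb from the start of a non-coding Heyl transcript, and the peaks in Kcnh3, Lrrc15 and Macrod1 touched no island. In Kctd16 the 3 peaks had identical bounds, only 4 windows, and 6.7, 8.5 and 11.4 RPM, with up to 2.4 RPM in a WT window where the median top window of an intragenic distal peak held 0.50 RPM. Why the 3 lists coincide there was not tested.

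Short motifs were counted on both strands in 300 bp around the strongest window. CAGCTG, an E-box, which is its own reverse complement, was present in 25.7% (24.4 to 27.1) of intragenic distal peaks, 22.9% (21.3 to 24.6) of intergenic distal and 16.3% (15.3 to 17.2) of promoter peaks, and in 12.1% of 300-bp stretches from every 10th tile. At 50 to 55% GC it was present in 27.3% (25.4 to 29.3) of the peaks and 21.0% (19.7 to 22.3) of the stretches. That class is set by 1600 bp, and the 300 bp themselves still differed, with 54.0% GC in the peaks and 52.3% in the stretches. TGTGGT, the core bound by RUNX factors, was present in 25.9% (24.5 to 27.3) of intragenic distal and 11.7% (10.9 to 12.5) of promoter peaks and in 21.2% of all stretches, and at 50 to 55% GC in 25.4% (23.6 to 27.4) of the peaks and 23.1% (21.8 to 24.5) of the stretches. The ETS core GGAAGT and CTTTGA, a core of TCF1 sites, were present in 20.3% and 16.6% of the peaks and in 16.7% and 21.7% of all stretches, and at 50 to 55% GC in 20.5% and 16.8% of the peaks and 19.5% and 16.7% of the stretches. A match is a description of the letters and not a binding site.

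By chromosome, density ran from 2.09 per Mb on chromosome 3 to 10.6 per Mb on chromosome 11, which also had the lowest and the highest median GC content of gene-body tiles, 41.1% and 44.2%.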

How the data were processed

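Chromatin of WT and Cxxc1-deficient DP cells was immunoprecipitated for H3K4me3 and Cxxc1, with 1 library per group, and sequenced with 50-bp reads. Per the study's methods and processing notes, reads were obtained with CASAVA 1.8.2 and mapped to mm9, and uniquely mapped reads were called with SICER 1.1 at a false discovery rate of 1e-05, with input and Cxxc1-deficient ChIP as controls. The aligner, and which control served for H3K4me3, are not given in the sources used here, and either could alter the list of peaks. The authors deposited the 200-bp windows of called regions with values in RPM at 1 decimal. Input and the Cxxc1 ChIP of Cxxc1-deficient cells were not analysed here.

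Windows with at most 2 missing windows between them were joined, and their RPM summed. Gene models came from GENCODE vM1 (protein-coding transcripts of 22372 genes), whose assembly has the same sequence as mm9. Peaks in overlapping genes were assigned to the shortest. CpG islands and composition were computed from the genome. Python 3.11.15, numpy 2.4.6, pandas 2.3.3, scipy 1.17.1, pysam 0.24.0, samtools 1.23.1 and matplotlib 3.10.9 were used, and the functions for joining, overlap and distance were tested on simulated data. No tests between groups were made. Groups followed the sample titles.

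Named were the host genes with most peaks, the 10 strongest peaks, peaks in all 3 lists, the 5 strongest overlapping each other list, those at the limits, and up to 4 genes of each gene list by summed RPM, of which 1 is not reported here. The peaks, gene lists and alternatives were chosen with earlier results of these data known. Fli1, Setd1b, Nfkb1, the genes of the 2 longest runs and the DP markers were named beyond that rule. Alternatives were another overlap, distance, joining, strength limit, island definition and TSS set, and, added after seeing the data, leaving out Gm20388.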

Additional observations from a re-analysis of the deposited data

How the results depend on the processing

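Of 38 alternative values for the number of intragenic distal peaks, their host genes and the shares at a Cxxc1-deficient peak, a Cxxc1 peak or a CpG island, 30 stayed within the interval of the main share or within 1.5 times the main count. The share with a Cxxc1-deficient peak, 4.84%, became 3.81% when 50% of the shorter peak had to overlap, 6.46% for peaks within 1 kb of each other and 4.16% with the stronger 50% of each list. The share with a Cxxc1 peak, 1.85%, became 2.73% within 1 kb and 1.41% with the stronger 50% of each list. The share at a CpG island, 5.40%, became 7.46% over 2 kb and 4.26% over 10 kb from a TSS, and 39.6% with looser islands. The changes with the stronger 50% of each list had a cause that was not tested, and the others follow from a wider or narrower definition. The counts ran from 2937 peaks over 10 kb to 4800 over 2 kb from a TSS. Leaving out Gm20388, chosen after seeing the data, moved none of these values out of its range. With about 20 tags in the median peak, places near the calling threshold can be listed in one library and not in another, which 1 library per group cannot show. No paired analysis was possible because no result comes from a test and every group holds 1 library.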
